A study of Mus musculus with 19 samples.

Results

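Fatty acid oxidation in the liver was followed through 8 mouse genes, taken by symbol from the embryonic liver count table and by the matching Ensembl identifier from the tumour tables. All 8 were present in both, among 13549 genes in the liver table and 17606 identifiers in the tumour tables. They are Ppara, Cpt1a, Cpt2, Acadm, Acadl, Ehhadh, Pdk4 and Fgf21. None of them encodes an enzyme of ketone body synthesis, so the ketogenic enzymes were read as a separate list of connected genes.

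The study modelled fibrolamellar carcinoma, a liver cancer that carries a fusion of DNAJB1 with PRKACA, the catalytic subunit of protein kinase A. In the first experiment, RNA was sequenced from livers at embryonic day 18.5: 5 from control embryos, whose alleles the labels do not list, and 4 from embryos that carried a lox-stop-lox DNAJB1-PRKACA-GFP cassette at Rosa26 together with Alb-Cre. The albumin promoter that drives this Cre is active in the hepatocyte lineage from mid-gestation, so the sequenced tissue was whole liver while the fusion was driven through albumin-expressing cells. In the second experiment, FL8 cells, a mouse line, were embedded in crosslinked gelatin and grown subcutaneously in NSG mice, which lack lymphocytes. At a mean tumour size of 75 mm3 the mice were assigned to vehicle or to palbociclib, a CDK4/6 inhibitor, given by mouth at 75 mg/kg in cycles of 3 days of dosing and 4 days without, and 5 tumours of each arm were sequenced. All 10 tumours came from the FL8 line, the labels do not say whether each came from a separate mouse, and the p-values measure the spread between the sequenced samples.

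Fatty acids enter mitochondria as carnitine esters. CPT1A makes the ester at the outer membrane and is blocked by malonyl-CoA, and CPT2 turns it back into an acyl-CoA inside, where chain-length-specific acyl-CoA dehydrogenases such as those encoded by Acadm and Acadl start each round of beta-oxidation. The nuclear receptor PPARA, which is activated by fatty acids, switches on much of this programme in fasting and around birth, together with Pdk4, whose kinase turns off pyruvate dehydrogenase and so spares glucose, and Fgf21, a hormone released by the liver. Fasting also raises glucagon, which acts on hepatocytes through cyclic AMP and protein kinase A.

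In units of 1000000 counts, the depth was 7.66 to 23.1 in control and 13.5 to 45.6 in fusion livers, and 2.96 to 33.9 in vehicle and 24.9 to 43.1 in palbociclib tumours. Prkaca, which the fusion contains, read 36.3 to 50.5 CPM (counts per 1000000 counts of the library) in controls and 52.0 to 114 CPM in fusion livers, without overlap. Dnajb1, the other fusion partner, read 41.7 to 52.9 CPM in controls and 51.7 to 74.3 CPM in fusion livers, with overlap. Hepatocyte markers summed to 130592 to 179059 CPM in controls, 94701 to 154183 CPM in fusion livers and 41166 to 130645 CPM in the tumours. Biliary markers (5 of 5 in the table) summed to 49.9 to 73.8 CPM in control and 11.4 to 41.4 CPM in fusion livers, and fibroblast and stellate markers (10 of 10) to 474 to 633 and 369 to 460 CPM. Neither sum overlapped between genotypes, and their part in the results was not tested. The livers also fell into 2 sets by the share of counts on ribosomal protein genes, 7.79 to 8.45% in controls 1 and 2 and fusion livers 8 and 9, and 5.40 to 6.75% in controls 3, 4 and 5 and fusion livers 6 and 7. By Xist, controls 1 and 2 and fusion livers 6, 7 and 8 were female, so in the lower-share livers sex and genotype cannot be told apart. Among the controls, sex and ribosomal share cannot be told apart either. Vehicle tumour 1 stood apart, with 46.6% of its counts on mitochondrially encoded genes against 1.24 to 6.47% in the other tumours. Erythroid and blood-forming markers (10 of 10 in the files) summed to 1303 to 95970 CPM in vehicle tumours, highest in tumour 3. In palbociclib tumours they summed to 1736 to 8423 CPM, and their part in the results was not tested.

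The sequence ahead of Fgf21 is shown because the gene was read in every control liver and in no fusion liver, and that of Acadm because its control and fusion livers did not overlap. Both are the 250 bases before the RefSeq start in GRCm38.p6, written 5′ to 3′ on the gene's own strand (minus for both), at chr7:45615491-45615740 for Fgf21 and chr3:153944644-153944893 for Acadm. Capitals mark matches to short motifs searched on both strands.
Fgf21: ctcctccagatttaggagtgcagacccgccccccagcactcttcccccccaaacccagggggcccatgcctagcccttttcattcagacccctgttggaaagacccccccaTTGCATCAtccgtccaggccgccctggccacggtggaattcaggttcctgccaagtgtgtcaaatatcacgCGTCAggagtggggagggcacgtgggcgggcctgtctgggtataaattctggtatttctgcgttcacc
Acadm: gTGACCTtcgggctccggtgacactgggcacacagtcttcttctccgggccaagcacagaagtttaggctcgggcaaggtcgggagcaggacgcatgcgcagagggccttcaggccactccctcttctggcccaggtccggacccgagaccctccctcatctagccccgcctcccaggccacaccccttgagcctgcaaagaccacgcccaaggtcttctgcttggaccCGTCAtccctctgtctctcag
The capitals in Fgf21 are, in order, a match to TGATGNAA, the form bound by ATF4 dimers, 139 to 132 bases before the start, and a match to TGACG, the core of the cyclic AMP response element, 68 to 64 bases before it. In Acadm they are AGGTCA, the nuclear receptor core, 249 to 244 bases before the start, and TGACG, 21 to 17 bases before it. All 4 matches read on the strand opposite to the gene, so the capitals show their reverse complements. Among all 32851 RefSeq promoter windows of 250 bases, 3.45% held TGATGNAA, 17.8% TGACG and 14.0% AGGTCA. Ppara and Ehhadh each held TGACG and Cpt1a held AGGTCA, while none of these matched in the windows of Acadl, Cpt2 or Pdk4. The full response element TGACGTCA, in 1.55% of windows (each also a TGACG match), the paired receptor motif AGGTCANAGGTCA, in 0.0335%, and TNAAGGTCA, in 1.14% (both also AGGTCA matches), matched in none of the 8 windows. A match is a run of letters and not a bound site, and its absence says only that these letters are not in this window.

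The embryonic comparison asked how liver expression differs when the fusion kinase is present. Pdk4 was lower in fusion livers, and Fgf21 was read in controls alone. Ppara and Cpt1a read lower and Cpt2, Acadm, Acadl and Ehhadh higher in fusion livers, none of them passing the threshold. The direction of Cpt1a and of Ehhadh depended on the setting. Of the 7 genes that could be tested, 1 (Pdk4) passed an adjusted p of 0.05 in edgeR's quasi-likelihood test, beside 12.8% of all 13316 genes tested, of which 5.99% were higher and 6.81% lower. At an unadjusted p under 0.05 there were 4 of 7, beside 29.3% of all genes. The median log2 fold change of the 7 was 0.21, beside -0.014 over all genes.

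Pdk4, at chr6:5483351-5496309 (GRCm38, minus strand), read 31.9, 42.1, 29.9, 18.8 and 28.0 CPM in controls 1 to 5 and 16.1, 13.3, 21.2 and 21.6 CPM in fusion livers 6 to 9. Control 4 lay among the fusion livers and the other 4 controls above all of them. The log2 fold change was -0.73 ± 0.22 (SE; 5 against 4 livers; edgeR adjusted p = 0.0497). Pdk4 was lower in every alternative fit, but its call was lost without any one of 8 of the 9 livers (adjusted p 0.0507 to 0.131; control 4 was the exception) and in 4 of 9 other settings. With the ribosomal split as a covariate its adjusted p was 0.00124, and within the higher-share and the lower-share livers it was 0.0145 and 0.0205.

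Fgf21, at chr7:45613886-45615490, had 15, 10, 18, 5 and 7 counts in controls 1 to 5 and 0 in each of the 4 fusion livers. On the CPM scale the controls stood at 0.892, 1.39, 0.846, 0.205 and 0.305, a mean of 0.729 ± 0.484 (SD, n = 5). Fgf21 was therefore close to the limit of detection even in controls. Set against the limit that 0 counts allows in the shallowest fusion liver, 0.230 CPM taking 3 counts as that limit, the control mean was at least 3.17-fold higher. An exact two-sided permutation test over the 126 splits of the livers gave p = 0.0238. Fgf21 did not reach the count filter of the edgeR fit. It passed the threshold in DESeq2 (adjusted p = 9.53e-06) and in edgeR without the filter (adjusted p = 0.0110). All 55 of its counts came from controls, and no gene deposited for the livers summed to under 47 counts. Fgf21 was thus among the deposited genes through its control counts alone, and these p-values are given with that limit. In whole liver, fewer cells of a type and less RNA per cell cannot be told apart.

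Ppara, at chr15:85734983-85802819 (plus strand), read 136, 164, 125, 101 and 119 CPM in controls and 68.3, 75.6, 106 and 109 CPM in fusion livers. Only control 4 fell within the fusion range, below fusion livers 8 and 9. The mean went from 129 ± 23.4 to 89.7 ± 20.8 CPM (SD, n = 5 and 4), a log2 fold change of -0.52 ± 0.18 (edgeR adjusted p = 0.0844). Ppara passed the threshold in 3 of 9 other settings: edgeR within the higher-share livers (adjusted p = 0.0471), within the lower-share livers (0.00613) and with the split as a covariate (0.00118). It did not pass in the other 6, among them DESeq2 (0.0521), limma-voom (0.0663) and edgeR with sex as a covariate (0.104), nor with any liver left out (0.0616 to 0.205).

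**Figure D1:**
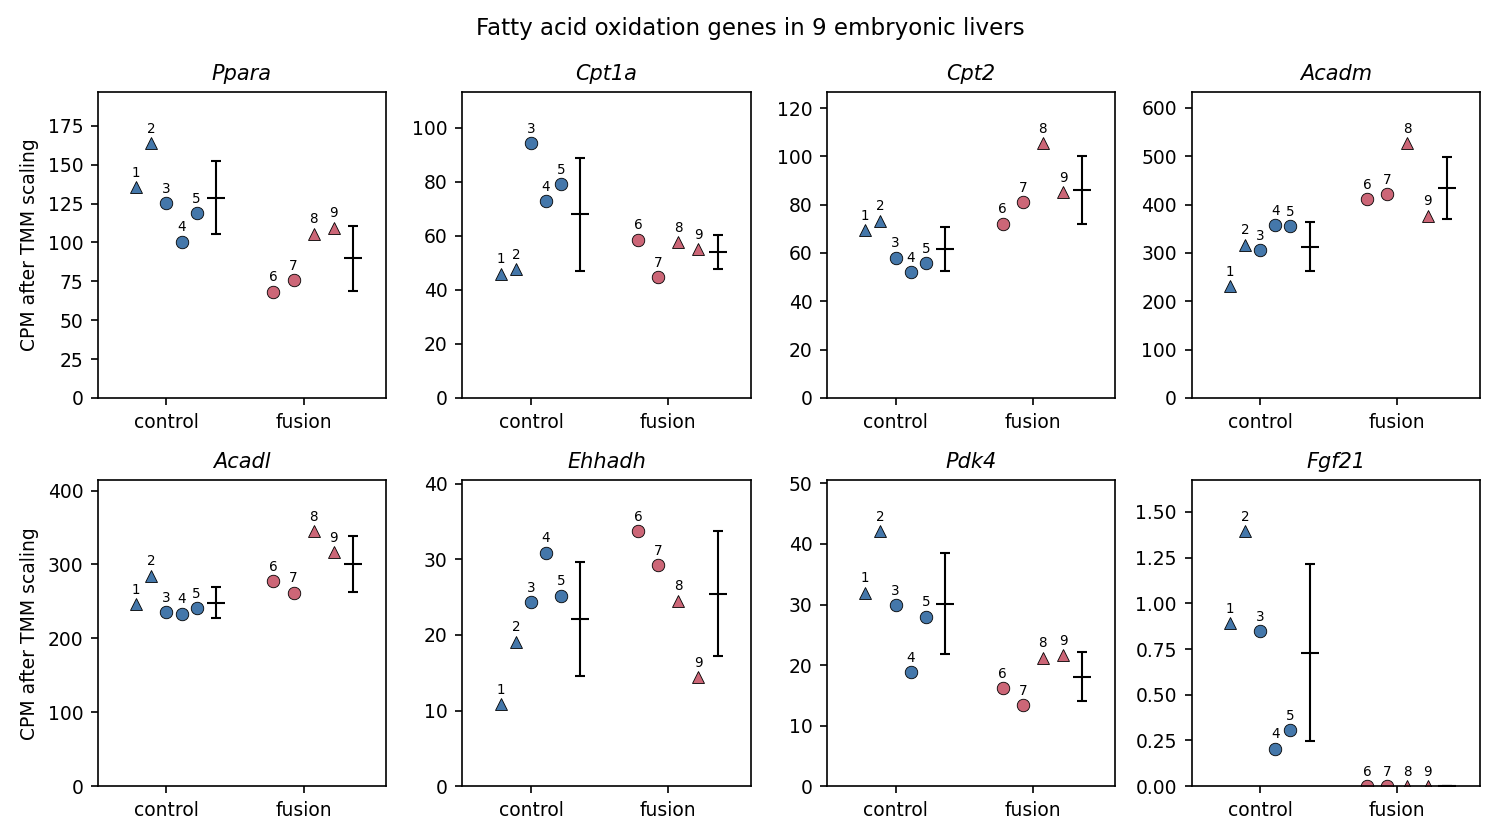
CPM of each of the 8 genes in the 9 embryonic livers (vertical axis, from 0), with numbered points for single livers by genotype, triangles for livers with the higher ribosomal share and bars for the mean ± SD. Fgf21 lies at 0 in all 4 fusion livers, every Acadm point of the fusion livers is above the controls, and the 2 control triangles of Cpt1a lie below the other 3 controls.

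The carnitine palmitoyltransferases differed from each other. Cpt1a, at chr19:3322334-3385733 (plus strand), read 46.0, 47.7, 94.4, 72.9 and 79.1 CPM in controls and 58.6, 44.7, 57.6 and 55.2 CPM in fusion livers. Controls 1 and 2, which had the higher ribosomal share, were below fusion livers 6, 8 and 9, and controls 3, 4 and 5 were above all fusion livers. Over all livers the Cpt1a log2 fold change was -0.34 ± 0.21 (edgeR adjusted p = 0.314). Its direction depended on the set of livers: it was 0.28 (adjusted p = 0.161) in the higher-share livers and -0.66 (adjusted p = 0.0158) in the lower-share livers, where sex and genotype coincide. With sex as a covariate over all livers it was -0.091 (edgeR adjusted p = 0.782), and without control 3 it was -0.18 (adjusted p = 0.623). In limma-voom it was -0.57 (adjusted p = 0.0439). The difference between the 2 sets, an interaction term added after the data were seen, was 0.93 ± 0.21 for Cpt1a (edgeR adjusted p = 0.0960), in a fit where 0.188% of genes passed. No member passed the threshold for that term.

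Cpt2, at chr4:107903981-107923610 (minus strand), read 69.3, 73.3, 58.0, 52.1 and 55.7 CPM in controls and 72.1, 81.0, 106 and 85.1 CPM in fusion livers. Only control 2 and fusion liver 6 overlapped, and by little. The log2 fold change was 0.48 ± 0.15 (edgeR adjusted p = 0.0516). Cpt2 passed the threshold in 6 of 9 other settings, among them DESeq2 (adjusted p = 0.0189), limma-voom (0.00734) and edgeR with the ribosomal split as a covariate (0.00297). It did not pass in edgeR with DESeq2 size factors (0.0529), with sex as a covariate (0.0931) or in the higher-share livers (0.0638), and it passed in 2 of 9 leave-outs (0.0317 to 0.140 over all 9).

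Acadm encodes the medium-chain acyl-CoA dehydrogenase and lies at chr3:153922357-153944632. It read 231, 317, 305, 357 and 355 CPM in controls and 411, 422, 527 and 377 CPM in fusion livers. Every fusion liver was above every control, as in 8.37% of all genes tested. The log2 fold change of Acadm was 0.47 ± 0.16 (edgeR adjusted p = 0.0757). It passed the threshold in DESeq2 (adjusted p = 0.0239), with the ribosomal split as a covariate (0.0163) and in the higher-share livers (0.0297), but in none of 6 other settings and with no liver left out (0.0722 to 0.194). Acadm was the only tested member whose groups did not overlap, beside 16.5% of all genes in either direction. Fgf21, which was not tested in that fit, was apart in the lower direction, as were 8.15% of the genes tested.

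Acadl, the long-chain acyl-CoA dehydrogenase at chr1:66830839-66863277, ranged from 234 to 285 CPM in controls and from 262 to 345 CPM in fusion livers. Control 2 was the one control above any fusion liver. The Acadl log2 fold change was 0.27 ± 0.13 (edgeR adjusted p = 0.180). Ehhadh, the bifunctional enzyme of peroxisomal beta-oxidation at chr16:21761287-21787807, ranged from 10.9 to 30.9 CPM in controls and from 14.4 to 33.7 CPM in fusion livers. Its ranges overlapped for most of their length, and its log2 fold change was 0.21 ± 0.29 (adjusted p = 0.680).

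Per kilobase of exon, the level of Acadl was highest in control livers at 124 ± 10.4 CPM per kb (SD, n = 5), followed by Acadm at 80.0 ± 13.1, Ppara at 33.6 ± 6.11 and Cpt2 at 25.8 ± 3.82. Cpt1a (8.90 ± 2.73), Pdk4 (8.58 ± 2.38) and Ehhadh (7.41 ± 2.53) did not differ beyond their spread, and Fgf21 was last at 0.766 ± 0.509. Fusion livers kept Acadl (150 ± 18.8, n = 4) and Acadm (111 ± 16.6) on top, but Cpt2 (35.9 ± 5.91) stood above Ppara (23.4 ± 5.42), and these ranges did not overlap there. In controls the ranges of Ppara and Cpt2 overlapped.

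Across the 9 livers Ppara and Pdk4 were the most alike pair of members, with a mean absolute difference of 0.233 between their standardised log2 CPM, followed by Cpt2 with Acadl at 0.313. Of all genes tested, those nearest to Ppara were Sbk1 (0.0751), Cyp4f13 (0.0942) and Stbd1 (0.135). Nearest to Pdk4 were Ctsa (0.207), Prss8 (0.210) and Acad12 (0.211). For Cpt2 they were Fuom (0.110), Pdhb (0.139) and Atp5g3 (0.141). Cpt1a, whose control livers split by ribosomal share and sex alike, had less close neighbours, the nearest being 1810011O10Rik at 0.242. These values describe 9 livers that share genotype, sex and library effects.

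The genes connected with these 8 were read in 9 lists with 102 genes tested, of which 11 were called higher and 19 lower in fusion livers. Of all 13316 genes tested, 5.99% were called higher and 6.81% lower, and these shares stand beside each list count below. The lists were chosen with earlier results of these data known, so the counts are descriptions and no list was tested. In the list of other PPARA target genes, 5 of 11 were called lower and none higher. Vnn1, encoding the pantetheinase vanin-1, fell from 10.0 to 1.04 CPM (log2 fold change -3.30, edgeR adjusted p = 0.000256). The fatty acid omega-hydroxylase genes Cyp4a10 (27.2 to 2.99 CPM, adjusted p = 0.00135) and Cyp4a14 (68.2 to 17.2 CPM, adjusted p = 0.00314) and the mitochondrial coenzyme A carrier gene Slc25a42 (52.5 to 32.0 CPM, adjusted p = 0.00374) fell too. Cyp4a10 and Cyp4a14 are close copies, and how reads shared by them were counted is not given in the sources used here. The median of the list was -0.11, since the other 6 genes lay on both sides of 0.

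**Figure D2:**
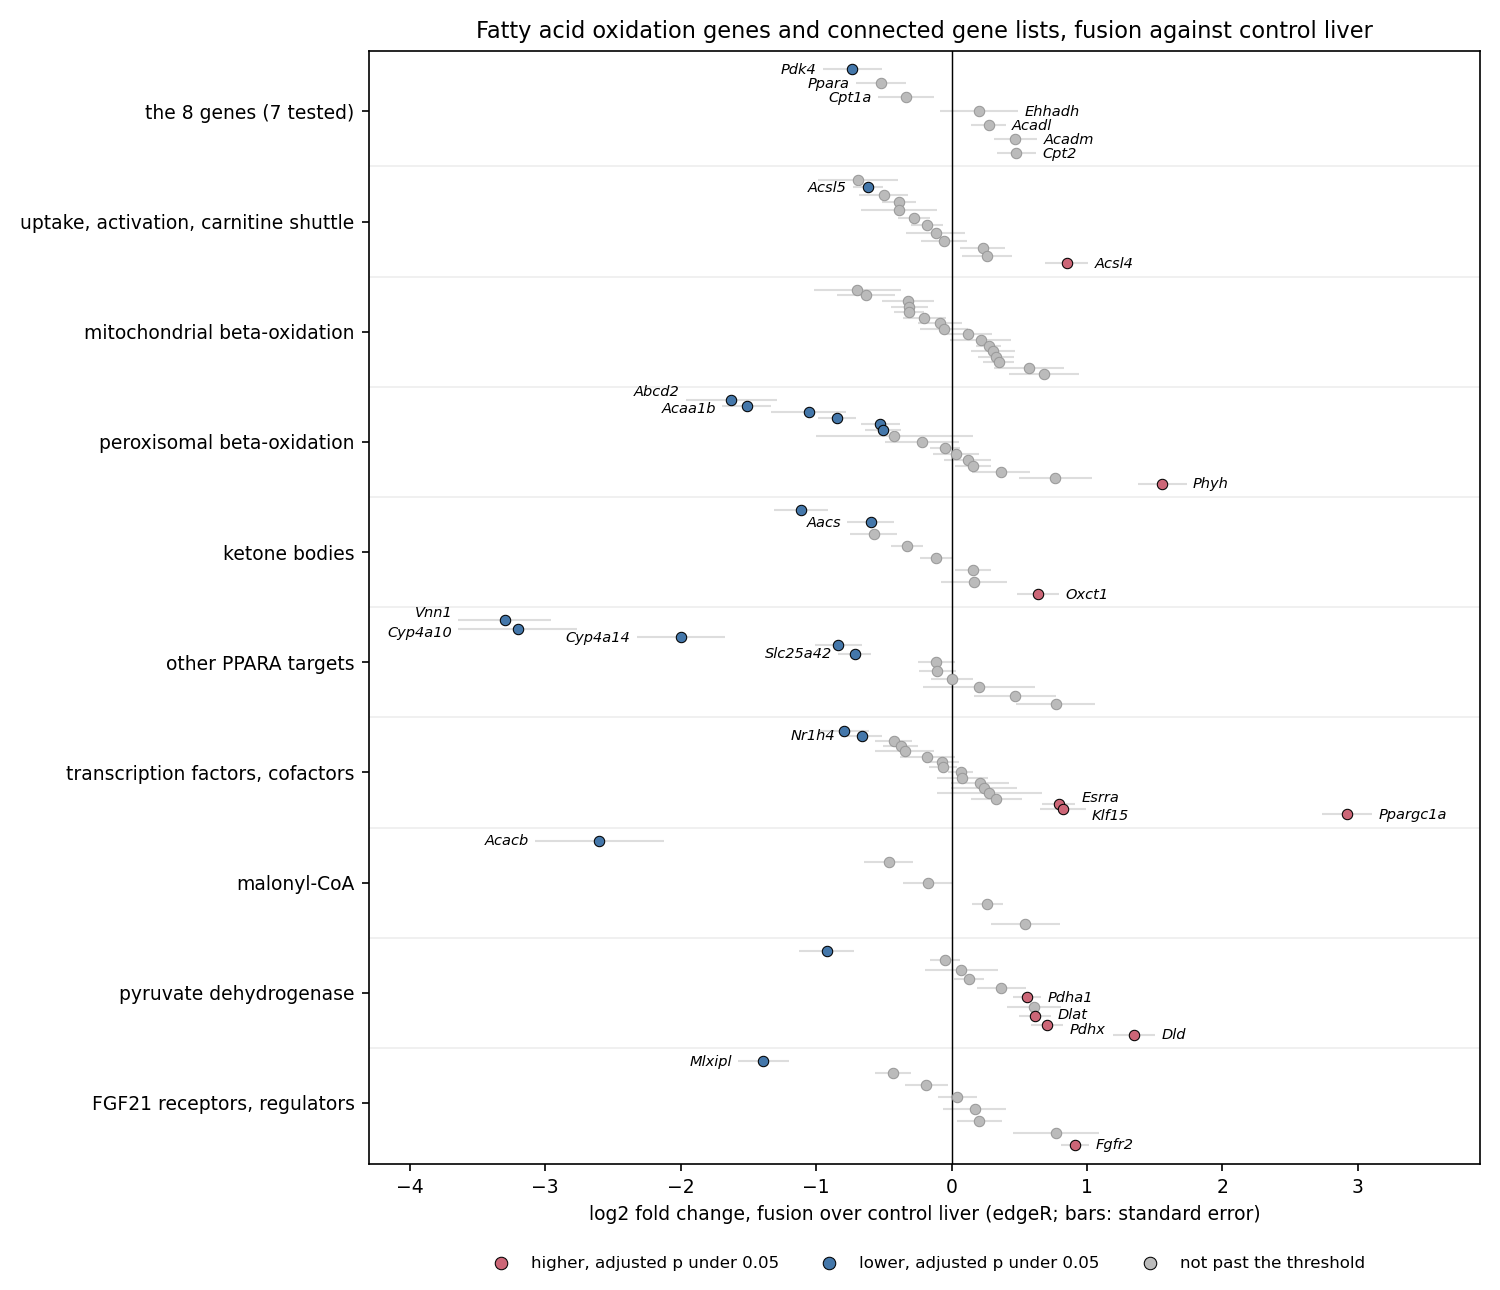
Log2 fold change of fusion over control liver (horizontal axis; points are genes, bars the standard error) for the 7 tested members and the 9 connected lists, coloured where edgeR's adjusted p was under 0.05. Vnn1 and Cyp4a10 lie farthest to the left and Ppargc1a farthest to the right, and no gene of mitochondrial beta-oxidation is coloured.

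Peroxisomal beta-oxidation was the list with most lower calls, 6 of 15 beside 1 higher, with a median of -0.22. The lower calls dropped to 3 with sex as a covariate, in the higher-share livers, and without control 3, fusion liver 7 or fusion liver 8. Acaa1b, a peroxisomal thiolase with a near-identical copy, fell from 53.8 to 18.9 CPM (edgeR adjusted p = 0.000562), and Abcd2, a peroxisomal fatty acid transporter, from 54.4 to 17.8 CPM (adjusted p = 0.0107). Abcd2 lost its call within the higher-share livers (log2 fold change -0.57, adjusted p = 0.191). The 1 higher call was Phyh, which starts the alpha-oxidation of phytanic acid and is not itself a beta-oxidation gene. It rose from 376 ± 39.1 to 1106 ± 294 CPM (log2 fold change 1.56, edgeR adjusted p = 0.000490).

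Of the 16 other genes of mitochondrial beta-oxidation, none was called in edgeR. In that fit 8 had an unadjusted p under 0.05, beside 29.3% of all genes, and the median of the list was 0.032. DESeq2 called 2 higher and 1 lower, beside 1241 higher and 1248 lower of all 13549 genes. With the ribosomal split as a covariate edgeR called 6 higher and 4 lower, beside 2143 higher and 2202 lower of all 13316 genes. Among 12 genes of fatty acid uptake, activation and the carnitine shuttle, the acyl-CoA synthetase gene Acsl4 rose from 25.2 to 45.2 CPM (edgeR adjusted p = 0.00664) and Acsl5 fell from 284 to 185 CPM (adjusted p = 0.00547).

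In ketone body metabolism, 1 of 8 genes was called higher and 2 lower. Oxct1, whose enzyme activates acetoacetate for oxidation in mitochondria, rose from 33.3 to 51.6 CPM (edgeR adjusted p = 0.0209), and Aacs, which activates acetoacetate in the cytosol, fell from 31.1 to 20.6 CPM (adjusted p = 0.0451). Oxct1 lost its call in the higher-share livers and without fusion liver 8. Aacs lost it in 3 other settings and without any one of 7 livers.

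Among 17 transcription factors and cofactors, 3 were called higher and 2 lower. Ppargc1a, a coactivator of PPARA and of mitochondrial genes, rose from 8.19 to 61.7 CPM (log2 fold change 2.92, edgeR adjusted p = 8.45e-06). Esrra, the estrogen-related receptor that partners with it, rose from 27.4 to 47.5 CPM (adjusted p = 0.00247), and Klf15, a fasting-regulated factor, from 35.7 to 63.3 CPM (adjusted p = 0.00996). Nr1h4, the bile acid receptor FXR, fell from 38.4 to 24.3 CPM (adjusted p = 0.0152). That call was lost in the higher-share livers and without control 3. Acacb, whose enzyme makes the malonyl-CoA that blocks CPT1A, fell from 56.1 ± 36.6 to 9.33 ± 3.26 CPM (log2 fold change -2.60, adjusted p = 0.00582), the 1 call among 5 genes of malonyl-CoA metabolism.

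Beside Pdk4, the list of pyruvate dehydrogenase and its regulators had 4 of 10 genes called higher, 1 called lower and a median of 0.46. The 4 encode subunits of the complex: Dld rose from 73.7 to 187 CPM (log2 fold change 1.35, edgeR adjusted p = 0.000487), Pdhx from 17.6 to 28.7 CPM (0.00364), Pdha1 from 79.3 to 117 CPM (0.00567) and Dlat from 35.5 to 54.3 CPM (0.00812). The lower call was Pdk2, another of the inhibitory kinases, which fell from 32.3 to 17.1 CPM (log2 fold change -0.92, adjusted p = 0.0141) and was named here after its values were seen. Among 8 genes of FGF21 receptors and regulators, Fgfr2 rose from 31.1 to 58.6 CPM (adjusted p = 0.000468) and Mlxipl, the carbohydrate-responsive factor ChREBP, fell from 38.6 to 14.8 CPM (adjusted p = 0.00117). Of the 24 genes that the naming rule took from these lists, 20 kept their call in all alternative fits and leave-outs that tested them.

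The tumour comparison asked what palbociclib does to FL8 tumours. No gene passed the adjusted threshold in limma on log2(CPM + 1), out of 12829 tested, while 586 (4.57%) had an unadjusted p under 0.05. On recovered reads edgeR called 0 genes and DESeq2 called 8, none of them among the 8 genes described here or the connected lists. Over all genes, fold changes were positive under palbociclib for 68.8% with CPM as deposited and 51.0% after TMM scaling. The median log2 fold change was 0.14 and 0.0069. Among the 8 genes described here fold changes were positive for 7 on both scales. Fgf21 was the exception. No member's groups were apart, while those of 0.935% of all genes were.

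Cpt1a read 77.4, 182, 181, 140 and 170 CPM in vehicle tumours 1 to 5 and 305, 176, 340, 204 and 168 CPM in palbociclib tumours 1 to 5. Palbociclib tumours 1, 3 and 4 were above all vehicle tumours. The log2 fold change of Cpt1a was 0.67 ± 0.29 (limma adjusted p = 0.953), or 0.53 above the median of all genes.

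Cpt2 read 12.9, 28.3, 34.5, 28.0 and 51.8 CPM under vehicle and 52.6, 43.3, 52.6, 37.5 and 52.1 CPM under palbociclib. Vehicle tumour 5 was within the palbociclib range and the other 4 were below it. The log2 fold change of Cpt2 was 0.71 ± 0.30 (limma adjusted p = 0.953).

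Pdk4 read 2.89, 11.6, 12.8, 8.16 and 12.2 CPM under vehicle and 15.3, 10.3, 15.3, 16.7 and 20.3 CPM under palbociclib. Palbociclib tumour 2 was within the vehicle range and the other 4 above it. The log2 fold change of Pdk4 was 0.76 ± 0.35 (limma adjusted p = 0.953). Cpt1a, Cpt2 and Pdk4 were the 3 members of 8 with an unadjusted p under 0.05, all higher under palbociclib, beside 3.73% of all genes.

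Vehicle tumour 1 had the lowest CPM of the 10 tumours for all 8 genes, and still for 6 of 8 (not Ppara and Acadl) when mitochondrially encoded genes were left out of the totals. Without it the log2 fold change was 0.45 for Cpt1a, 0.44 for Cpt2 and 0.43 for Pdk4, and none of the 3 had an unadjusted p under 0.05. Its summed hepatocyte markers were the lowest of the tumours at 41166 CPM, on totals that include the mitochondrially encoded genes. Its macrophage markers (9 of 10 in the files) were the highest at 1466 CPM against 70.6 to 179 CPM in the others. Its endothelial (253 CPM, against at most 177 CPM) and biliary markers (128 CPM, against at most 87.3 CPM) were the highest too. The part of these in the results was not tested.

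Fgf21 read 4.61, 34.8, 30.6, 31.9 and 57.9 CPM under vehicle and 26.0, 21.1, 21.0, 23.6 and 23.7 CPM under palbociclib. The 5 palbociclib tumours were close together, below 4 of the vehicle tumours and above vehicle tumour 1. The Fgf21 log2 fold change was -0.13 ± 0.45 (limma adjusted p = 0.980). It was -0.68 (limma adjusted p = 0.968) without vehicle tumour 1 and 0.17 without vehicle tumour 5.

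**Figure D3:**
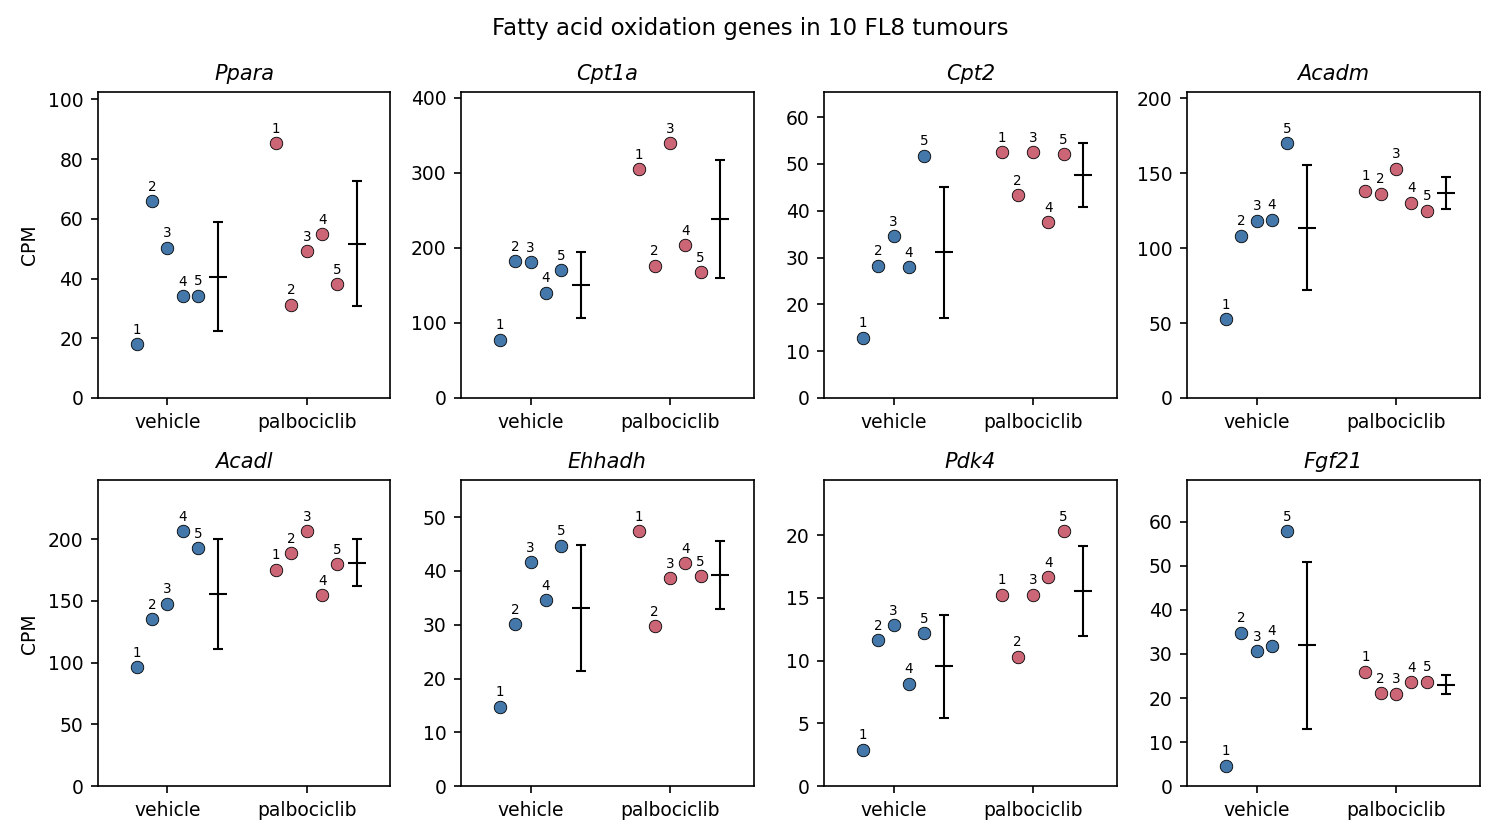
CPM of each of the 8 genes in the 10 FL8 tumours (vertical axis, from 0), with numbered points for single tumours by treatment and bars for the mean ± SD. Vehicle tumour 1 is the lowest point in all 8 panels, and the 5 palbociclib points of Fgf21 lie between 21.0 and 26.0 CPM.

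The remaining members overlapped between arms. Ppara ranged from 18.0 to 66.0 CPM under vehicle and 31.2 to 85.4 CPM under palbociclib, with a log2 fold change of 0.38 ± 0.34. Acadm ranged from 52.6 to 170 and from 125 to 153 CPM (0.35). Acadl ranged from 96.1 to 206 and from 155 to 206 CPM (0.26), and Ehhadh from 14.7 to 44.7 and from 29.7 to 47.4 CPM (0.31). The limma adjusted p was 0.953 for each of these 4 genes.

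Of the 98 connected genes tested in the tumours none passed the adjusted threshold. In limma 7 of them had an unadjusted p under 0.05, beside 4.57% of all genes tested. The 3 with the smallest p were Acot4, an acyl-CoA thioesterase gene (5.32 ± 3.79 to 11.8 ± 1.56 CPM), Acaca, the acetyl-CoA carboxylase of fatty acid synthesis (60.8 to 122 CPM), and the lipid droplet gene Cidec (1.42 to 3.93 CPM), each with a limma adjusted p of 0.953. All 3 read higher under palbociclib.

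Per kilobase of exon, the level in vehicle tumours was highest for Acadl (77.6 ± 22.2 CPM per kb; SD, n = 5), followed by Fgf21 (33.6 ± 19.9) and Acadm (29.0 ± 10.7), which overlapped. Cpt1a stood at 19.6 ± 5.75, Cpt2 at 13.0 ± 5.87, Ehhadh at 11.1 ± 3.95, Ppara at 10.6 ± 4.76 and Pdk4 at 2.72 ± 1.18. Fgf21, which was last of the 8 in embryonic liver, was thus at rank 2 in vehicle tumours and rank 4 under palbociclib (24.3 ± 2.19). These are ranks of means only. In vehicle tumours Fgf21 ranged from 4.84 to 60.8 CPM per kb, which covered the ranges of Acadm, Cpt1a, Cpt2 and Ehhadh. The liver and tumour tables were processed and normalised separately, so the levels are given side by side and were not compared by a test.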

How the data were processed

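RNA-seq of 9 embryonic livers and 10 tumours was analysed. The authors deposited raw counts per gene for the livers, aligned with STAR 2.5.1b to mm10 per the submitters' processing notes, and CPM per Ensembl identifier for each tumour, for which those notes name cutadapt 2.10, HISAT2, featureCounts, DESeq2 and mm10. The annotation, the use of strand and the treatment of shared reads are not given in the sources used here. No liver gene summed to under 47 counts over the 9 libraries. Dividing the deposited CPM by the step of 1 read gave whole reads for 100% of tumour values (tolerance 0.01).

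Livers were tested with edgeR 4.0.16 (quasi-likelihood, TMM, filterByExpr) and tumours with limma 3.58.1 (trend) on log2(CPM + 1) for genes averaging at least 1 CPM, in R 4.3.3, with Benjamini-Hochberg adjustment over all genes tested and a threshold of 0.05. Tumour fold changes are on the log2(CPM + 1) scale, which understates changes of low genes. Groups came from the sample labels. The CPM of livers use TMM-scaled totals, and exon lengths and positions come from GENCODE M21, which held 13103 of the 13549 liver symbols. Promoters come from RefSeq, which held all 8 genes. On simulated data the scripts recovered 199 of 200 genes changed 4-fold in the livers (208 calls among 13286 genes) and 193 of 193 in the tumours (202 calls among 12831 genes). The simulation kept the real mean levels and depths but gave all genes the same dispersion of 0.05. It held no ribosomal, sex or mitochondrial differences between libraries. It therefore does not show how changes below 4-fold would be recovered in the real livers and tumours.

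All 8 genes are named. Of each connected list, up to 4 genes with the smallest adjusted p under 0.05 in the livers are named, and over all lists the 3 with the smallest unadjusted p in the tumours. Each member's 3 most alike genes were found by mean absolute difference of standardised log2 CPM and are named for selected members. Results for some genes that the rule took are not reported here. The members and lists were chosen with earlier results of these data known. Alternatives were other normalizations, tests (DESeq2 1.42.0, limma-voom) and filters, covariates for ribosomal share and sex, subsets of livers, a replicate block and leaving out each sample. The genotype by ribosomal share interaction was added after seeing the data.

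The number in a tumour's label recurs in both arms, but the correlation of deviations within same-numbered pairs ran from -0.32 to 0.00, so the numbers were not taken to pair tumours. Replicates differed by more than counting noise in every group (lowest chi-square per degree of freedom 13.1).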

Additional observations from a re-analysis of the deposited data

Results flagged for a closer look

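In 85 groups of values screened for a sample far from the others, 4 had a single value set apart, where chance gives about 1 group in 20 (4.25 here). Acadl in control liver 2 read 285 CPM, against 234 to 246 CPM in the other controls. Abcd2 in fusion liver 9 read 31.6 CPM, against 12.2 to 14.3 CPM in the other fusion livers. Vnn1 also stood apart in fusion liver 9, with 1.92 CPM against 0.690 to 0.855 CPM. Acaca in palbociclib tumour 1 read 211 CPM, against 85.2 to 118 CPM in the other palbociclib tumours.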

How the results depend on the processing

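Of all genes, edgeR called 1704 in the main comparison of livers. The count was 4345 with the ribosomal split as a covariate, 2589 in the higher-share livers, 2950 in the lower-share livers and 969 to 1581 with each liver left out, the lowest without control 3. It was 1107 without fusion liver 7 and 987 without fusion liver 8. Of the 8 genes, 1 was called in the livers, against 0 with DESeq2 size factors and with sex as a covariate, 2 with limma-voom, without the count filter and at a mean of at least 10 CPM, 4 with DESeq2, with the ribosomal covariate and in each subset of livers, and 0 to 2 with each liver left out. Over all genes DESeq2 called 2489 of 13549, limma-voom 2357 of 13316 and edgeR without the count filter 1768 of 13549. At a mean of at least 10 CPM edgeR called 1213 of 8311, and with the ribosomal covariate 4345 of 13316. With DESeq2 size factors edgeR called 1711 of 13316, and with sex as a covariate 1284 of 13316. Fgf21 was tested only with DESeq2, without the count filter, in the higher-share livers and with a fusion liver left out. There 8 genes were tested, and 7 in the other settings. Fgf21 passed the threshold in each liver fit that tested it, so the counts of those settings include it. It was among the deposited genes through its control counts alone, which limits what these calls can show. Directions turned for Cpt1a in the higher-share livers (0.28), for Ehhadh in limma-voom (-0.017) and for Fgf21 in the tumours without vehicle tumour 5 (0.17; range over leave-outs -0.68 to 0.17). In the tumours limma called 0 genes, DESeq2 8 on recovered reads and limma with array weights 58 (12 higher, 46 lower), and leaving out any tumour gave 0 to 0. No setting called any of the 8 genes in the tumours. With the label number as a replicate block the count was 0 and 460 genes had an unadjusted p under 0.05, and no tumour was closest to its same-numbered partner. At 0 counts, the depth of control liver 2 allows up to 0.392 CPM and that of vehicle tumour 5 up to 1.01 CPM (3 counts in each library), the shallowest library of each experiment. Intervals from these limits cover counting error only.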

Other observations

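Among the connected genes called lower in fusion livers, 5 besides Pdk2 lay outside the naming rule and are given here after their values were seen, each with the adjusted p of edgeR's quasi-likelihood test. Angptl4, a PPARA target that encodes an inhibitor of lipoprotein lipase, fell from 44.4 ± 8.39 to 24.8 ± 5.41 CPM (SD, n = 5 and 4; adjusted p = 0.0109), and its groups did not overlap. Foxa2, a forkhead factor of hepatocytes, fell from 35.1 ± 5.68 to 20.2 ± 5.81 CPM (adjusted p = 0.0189), also without overlap. In the peroxisome, Decr2 fell from 33.8 ± 13.1 to 16.3 ± 2.40 CPM (adjusted p = 0.0283), Acaa1a from 113 ± 11.7 to 79.7 ± 11.7 CPM (adjusted p = 0.0291) and Acox2 from 116 ± 13.6 to 80.9 ± 14.5 CPM (adjusted p = 0.0355). Acaa1a shares reads with its near-identical copy Acaa1b to a degree that is not known here.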
